A study of Mus musculus with 18 samples.

Results

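The baseline of an orthotopic mammary cancer model was described from the 5 tumors labelled Vhc, which received the vehicle and no inhibitor. They were chosen by that label and are 5 of the 18 tumors of the series. 4T1 is a cell line from a mammary carcinoma that arose in a Balb/c mouse, widely used as a model of triple-negative breast cancer, the subtype defined by absent estrogen and progesterone receptors and no ERBB2 amplification. Per animal, 300000 of these cells were placed in the fat pad of an 8-week-old female Balb/c host with an intact immune system. The gavage vehicle, methylcellulose with Tween-80, was started on day 7, and the tumors were taken on day 21. The other groups, used here only to see where the baseline stood apart, carried the same cells and were dosed over the same days with the PI3K inhibitor CLR457 (PI3Ki, 4 tumors), the SHP2 inhibitor SHP099 (SHP2i, 4 tumors) or both (Combo, 5 tumors). All tumors grew from 1 cell line, so the 5 Vehicle tumors, taken as 1 per host, are samples of the same cancer, and the SDs below are over these 5.

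RNA was taken from whole tumors, so each value is a mixture of cancer cells and the host cells around them, and fewer cells of a type cannot be told apart from less RNA per cell. 4T1 tumors are known for heavy infiltration by myeloid cells, for spread to lung, and for cancer cells that hold epithelial and mesenchymal traits side by side. The growth of such cells is driven in part by receptor tyrosine kinases (RTKs), which bind growth factors outside the cell and recruit adaptors and the phosphatase SHP2 inside it. SHP2, encoded by Ptpn11, passes the signal to RAS and the ERK kinases, and class I PI3K passes it to AKT and mTOR.

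The Vehicle libraries held between 21161111 and 24785931 counts assigned to genes, and between 17401 and 17668 genes had at least 1 count in a tumor. Levels are given in CPM, counts per 1000000 counts of a library after TMM scaling, and between genes only in RPKM, CPM per 1000 bases of exon. Per-tumor values are in the order Vehicle 1 to Vehicle 5, and the error is the SD with n = 5 throughout. A gene was called expressed at 1 CPM or more in all 5 tumors and silent at no more than 3 counts in each, which is 0.142 CPM in the shallowest of them. Intervals were not attached to these counts, since the reads carry no molecular identifiers and counting error is only a part of the spread.

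Tissue and sex were checked against marker genes, a check that does not bear on the treatment. Krt8 and Krt18, the keratins of simple epithelia, stood at 286 and 261 RPKM, and Vim, the intermediate filament of mesenchymal cells, at 742 RPKM. Of genes of other organs, 7 of 13 liver genes, 7 of 10 testis genes, 2 of 12 brain genes and 6 of 8 Y-linked genes were silent, and the summed levels of these lists were 10.7, 7.48, 106 and 1.64 CPM. Of the brain sum, 103 CPM came from Syn1, whose count is shared with Timp1. Apoa1, Ttr, Tat, Cyp3a11, Neurod1, Tnp1, Dazl, Sry and Eif2s3y had no count in any of the 5 tumors. Pearson r between pairs of Vehicle tumors was 0.995 to 0.997 across genes on the log2(CPM + 1) scale, a description only, since genes are not independent replicates.

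Of 22792 genes in the tables, 13313 (58.4%) were expressed in all 5 Vehicle tumors, 6220 (27.3%) were silent and 3259 (14.3%) lay between. No count at all was seen for 3788 genes. Expression was broad among protein-coding genes, of which 12837 of 20160 (63.7%) were expressed, and lower among long non-coding RNA genes, at 364 of 1203 (30.3%). Only 20 of 1057 miRNA genes and 1 of 91 snoRNA genes passed, in libraries made from polyadenylated RNA. Expressed genes took 99.8% of all counts. Their median level was 32.8 CPM, or 7.14 RPKM over the 12963 with an exon length. A mean of 10 CPM was reached by 10403 genes, 100 CPM by 2277 and 1000 CPM by 76.

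Some counts belong to more than 1 gene. Patl2 spans chr2:122120108-122186189 (GRCm38) and encloses B2m at chr2:122147687-122153082, the light chain of MHC class I, and the 2 genes had 258339 and 256480 counts over the 5 tumors. Syn1, a synapse gene, likewise stood at 103 CPM around Timp1, an inhibitor of matrix proteases that lies within it, at 98.9 CPM. Of 111 gene pairs in which 1 gene lay inside another with no shared exon base, the enclosing gene had at least the counts of the inner gene in all 5 tumors in 92 (82.9%). Among expressed genes, 1799 (13.5%) overlapped a gene that could account for 50% or more of their counts. The reads that such a gene has in common with its partner were not measured. The levels of such genes are uncertain, and whether strand was used in counting was not given in the sources used here. The cells are Balb/c and the genome is that of another strain, which touches polymorphic genes such as those of the H2 locus.

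The most abundant single gene was Eef1a1, which carries aminoacyl-tRNAs to the ribosome, at 7636, 8708, 8382, 8308 and 8370 CPM. It took 0.842% of counts on average, and Vehicle 1 was the lowest. The 20 genes with the highest CPM held 6.28% ± 0.27 of the counts, the top 100 held 16.4%, the top 1000 held 47.2%, and 1156 genes made up 50%. No single transcript dominated these libraries.

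Ranked by CPM, the genes after Eef1a1 included COX1, Actb, Vim, Hspa8, Igfbp4, Eef2, ATP6, Actg1, Psap, Fn1, Hsp90ab1, Lgals1, Pabpc1, Ubb, Fth1, Cd74, Patl2 and Rpsa. These are mitochondrial subunits (COX1, ATP6), actins, chaperones (Hspa8, Hsp90ab1), translation factors and the ubiquitin gene Ubb, with 4 whose products mark or act on the tumor's surroundings: fibronectin (Fn1), galectin-1 (Lgals1), the IGF-binding protein Igfbp4, and the MHC class II invariant chain (Cd74). Igfbp4 was even between tumors at 3194, 3134, 3302, 3050 and 3220 CPM. Fn1, the matrix glycoprotein fibronectin, was not, at 2641, 1917, 2288, 2436 and 4513 CPM, with Vehicle 5 above the other 4. Cd74 ran from 1307 CPM in Vehicle 1 through 2108, 2190 and 2570 to 2858 CPM in Vehicle 5.

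Per length the order changed, since short transcripts move up. ATP6 was listed at 4318 ± 799 RPKM, a count that it may share with the overlapping COX3, before Eef1a1 at 3321 ± 158, Lgals1 at 2799 ± 313, COX3 at 2747 ± 445, COX2 at 2652 ± 477, Rplp1 at 2536 ± 128 and B2m at 2536 ± 154. COX1, Ubb, Actb, Cd74, CYTB, Ptma, Rps15, Lyz2, Rps3a1, Tmsb4x, ATP8, Spp1 and Actg1 completed the 20, between 2435 and 1098 RPKM. From COX3 to COX1 the SDs were larger than the steps between neighbours. The 13 mitochondrial protein genes took 1.63% ± 0.273 of counts, lowest in Vehicle 2 at 1.16%, where COX1 was 2620 CPM against 3746 to 4425 CPM in the other 4. The 75 cytosolic ribosomal protein genes took 5.27% ± 0.446.

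**Figure D1:**
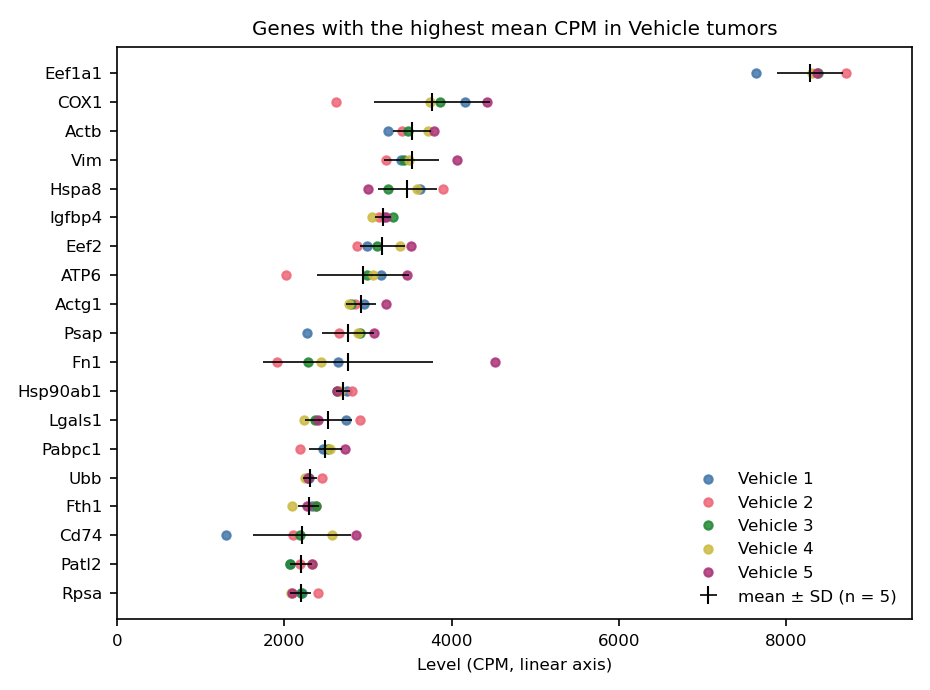
Genes among the 20 with the highest mean CPM in the Vehicle tumors, on a linear axis of CPM, with 1 coloured point per tumor and a cross for the mean with its SD (n = 5). The points of most genes lie close together, while Fn1 (1917 to 4513 CPM, highest in Vehicle 5), Cd74 (1307 to 2858 CPM, lowest in Vehicle 1) and the mitochondrial COX1 and ATP6 (lowest in Vehicle 2) spread out.

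The 100 bases before the start of 4 genes are shown to set abundant genes beside genes at or near 0, from RefSeq on GRCm38.p6, written on the strand of the gene with each CG in capitals. Eef1a1 (chr9:78481725-78481824, minus strand) and Vim (chr2:13574211-13574310, plus strand) are from the abundant end, and the milk protein genes Csn2 (chr5:87699426-87699525, minus strand) and Wap (chr11:6638650-6638749, minus strand) from the other, with mean levels of 0.213 CPM and 0 CPM. Csn2 was not silent, since 24 of its 27 counts were in 1 tumor, Vehicle 2. The 4 stretches hold 8, 5, 2 and 0 CG.
Eef1a1: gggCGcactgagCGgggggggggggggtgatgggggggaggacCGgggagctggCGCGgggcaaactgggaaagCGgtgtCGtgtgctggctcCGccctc
Vim: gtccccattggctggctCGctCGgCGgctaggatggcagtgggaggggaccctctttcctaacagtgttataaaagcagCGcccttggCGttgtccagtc
Csn2: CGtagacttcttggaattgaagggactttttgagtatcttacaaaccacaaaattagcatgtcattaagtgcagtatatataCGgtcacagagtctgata
Wap: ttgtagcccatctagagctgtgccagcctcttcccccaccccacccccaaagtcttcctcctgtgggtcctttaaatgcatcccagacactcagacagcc

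CG was counted in windows of 300 bases around the start for 16152 protein-coding genes. A gene with several starts was given its highest CG count and a match found in any of its windows. More starts can therefore raise the values of a gene. The median number of CG was 22 for the 10289 expressed genes and 2 for the 3752 silent genes, against 16 over all. The 100 genes highest per length had a median of 20.5. The letters TATAAA on the sense strand in the 50 bases before the start, present in Vim, were found in 2.0% of expressed and 8.34% of silent genes, in 6.0% of the 100 highest and in 3.8% of all. CCAAT on either strand (CCAAT or ATTGG) in the 150 bases before the start was found in 31.8% of expressed, 28.5% of silent and 30.2% of all genes. These are matches of letters only, counted without a test.

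Among epithelial genes, the luminal pair stood far above the rest. Krt8 was at 597, 643, 505, 431 and 619 CPM and Krt18 at 404, 441, 343, 268 and 417 CPM, both lowest in Vehicle 4. Krt19, another luminal keratin, reached 21.2 RPKM on average but differed widely between tumors, at 61.0, 54.6, 34.1, 36.5 and 10.6 CPM, with Vehicle 5 below 0.5 times every other. Krt7 was at 52.3, 54.5, 26.9, 17.9 and 44.6 CPM. The basal keratins Krt14 (3.78 RPKM) and Krt5 (3.42 RPKM) were the highest of the 12 basal and stratified keratins and 4 of those 12 passed as expressed.

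Of 25 genes of epithelial junctions, 22 were expressed. The highest per length were Tjp1 at 28.2 RPKM, the endothelial claudin Cldn5 at 26.7 and the protease inhibitor Spint2 at 24.8. The adhesion genes that define epithelium were low beside the keratins: Cdh1 (E-cadherin) at 24.1, 19.3, 12.1, 12.96 and 22.4 CPM, or 3.97 RPKM, and Epcam at 20.4, 25.7, 13.8, 14.6 and 17.0 CPM, or 8.33 RPKM. Vehicle 3 and Vehicle 4 were the lowest for both, as they were for Krt7, Krt8 and Krt18.

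Mesenchymal genes were high, with 13 of 16 expressed. Vim was at 3400, 3210, 3426, 3495 and 4068 CPM. S100a4, a calcium-binding protein of motile cells, followed at 289 RPKM and Fn1 at 236 RPKM. Of the transcription factors that repress epithelial genes, Snai1 was the highest at 36.1 RPKM (68.9, 56.0, 50.7, 56.0 and 60.7 CPM), with Twist1 at 21.7 RPKM (41.0, 34.7, 34.5, 38.3 and 27.9 CPM), Zeb2 at 6.92 and Zeb1 at 1.84 RPKM. Snai2 was at 0.704 RPKM and N-cadherin (Cdh2) at 0.173. Host fibroblasts and macrophages also express Vim and Fn1, and the share of each source was not tested.

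Of the receptors that define the triple-negative subtype, those of estrogen and progesterone were low. Esr1, the estrogen receptor, was at 16.1, 14.6, 14.6, 17.5 and 16.0 CPM, or 1.15 RPKM. Pgr, the progesterone receptor, was at 3.14, 3.76, 2.97, 2.26 and 1.09 CPM, or 0.309 RPKM. Both passed the threshold of 1 CPM in each tumor, so neither was silent. Erbb2 was at 41.0, 30.9, 33.0, 33.2 and 37.8 CPM, or 6.75 RPKM, a count that it may share with the overlapping Mien1. That level lay near the median of expressed genes, 7.14 RPKM, and amplification of Erbb2 was not tested. Of 24 mammary lineage factors 21 were expressed, led by the luminal factor Gata3 at 30.6 RPKM (137, 117, 108, 125 and 122 CPM), then Procr at 13.3 and Stat5b at 11.7 RPKM. Foxa1 and Elf5, factors of luminal and milk-forming cells, were at 0.971 and 0.28 RPKM.

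Of 12 milk protein genes, 4 were expressed, 4 lay between and 4 were silent, of which Csn1s2b and Wap had no count. The 4 expressed were Mfge8 (64.0 RPKM), which macrophages also make, Glycam1 (19.0 RPKM), Ltf (3.42 RPKM) and Csn3 (1.25 RPKM). Glycam1, a mucin of mammary epithelium and of high endothelial venules, was at 1.38, 54.3, 32.0, 72.9 and 41.7 CPM, with Vehicle 1 far below the other 4.

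RTKs were read first because both drug targets of the series lie beneath them. Of 54 RTK genes in the tables, 39 were expressed in all 5 tumors, 14 lay between and only Fgfr4 was silent. Fgfr2, a receptor of fibroblast growth factors (chr7:130162451-130266808), was the highest at 133 ± 3.4 RPKM and took 22.8% of the summed RPKM of the RTK genes. Its level hardly moved between hosts, at 1420, 1361, 1338, 1352 and 1405 CPM. Axl, the receptor of GAS6 (chr7:25756500-25788924), was the next at 115 ± 15.5 RPKM, at 494, 524, 588, 588 and 698 CPM, and thus less even than Fgfr2. The RPKM ranges of Fgfr2 (130 to 138) and Axl (98.2 to 139) overlapped, and both lay apart from all other RTKs, the next of which reached at most 61.4 RPKM.

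Receptors known from cells of the tumor stroma followed. Csf1r, the receptor of macrophages for CSF1, was at 52.8 RPKM (231, 300, 322, 316 and 355 CPM). Pdgfrb, a receptor of pericytes and fibroblasts, was at 32.3 RPKM (160, 142, 183, 182 and 219 CPM), and Pdgfra, of fibroblasts, at 19.7 RPKM (169, 146, 237, 201 and 236 CPM). All 3 had their lowest value in Vehicle 1 or Vehicle 2 and their highest in Vehicle 3 or Vehicle 5. The paper also detects PDGFRβ, the protein of Pdgfrb, in cultured cells of the injected cancer line. The share of stromal and cancer cells in these levels was not tested. Between Pdgfrb and Pdgfra came the Wnt receptor Ryk at 31.2 RPKM, Epha2 at 22.7, Ptk7 at 21.7, the collagen receptor Ddr2 at 20.9 and Ephb4 at 20.8. From Epha2 to Pdgfra the ranges over tumors overlapped at each step, and no order can be read from them.

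Lower again were Fgfr1 at 14.1 RPKM, Epha5 at 13.7, Tie1 at 9.73 and Epha1 at 8.09, which may share its count with Zyx. The HGF receptor Met was at 7.25 and Ddr1 at 6.48 RPKM. The insulin receptor Insr was at 58.4, 43.3, 60.7, 58.7 and 74.3 CPM, or 4.30 RPKM, and Igf1r at 2.53 RPKM. Egfr was at 39.1, 28.7, 35.7, 32.0 and 40.7 CPM, or 3.11 RPKM. Erbb3 stood at 0.855 RPKM and Erbb4 at 0.0404. Insr and Egfr were both lowest in Vehicle 2 and highest in Vehicle 5.

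Eph receptors were uneven. Of 14, 7 were expressed. Epha5, at 244, 231, 234, 225 and 211 CPM, spans more than 1 pseudogene in its introns, and what part of its count comes from them was not tested. Epha7 was near the floor: 1 to 10 counts per tumor, or 0.462, 0.196, 0.0872, 0.205 and 0.0436 CPM. Ret, Alk, Ltk, Ror1 and Ror2 were each at or under 1.27 RPKM, and Ros1 and Musk at 0.0112 and 0.0157 RPKM.

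**Figure D2:**
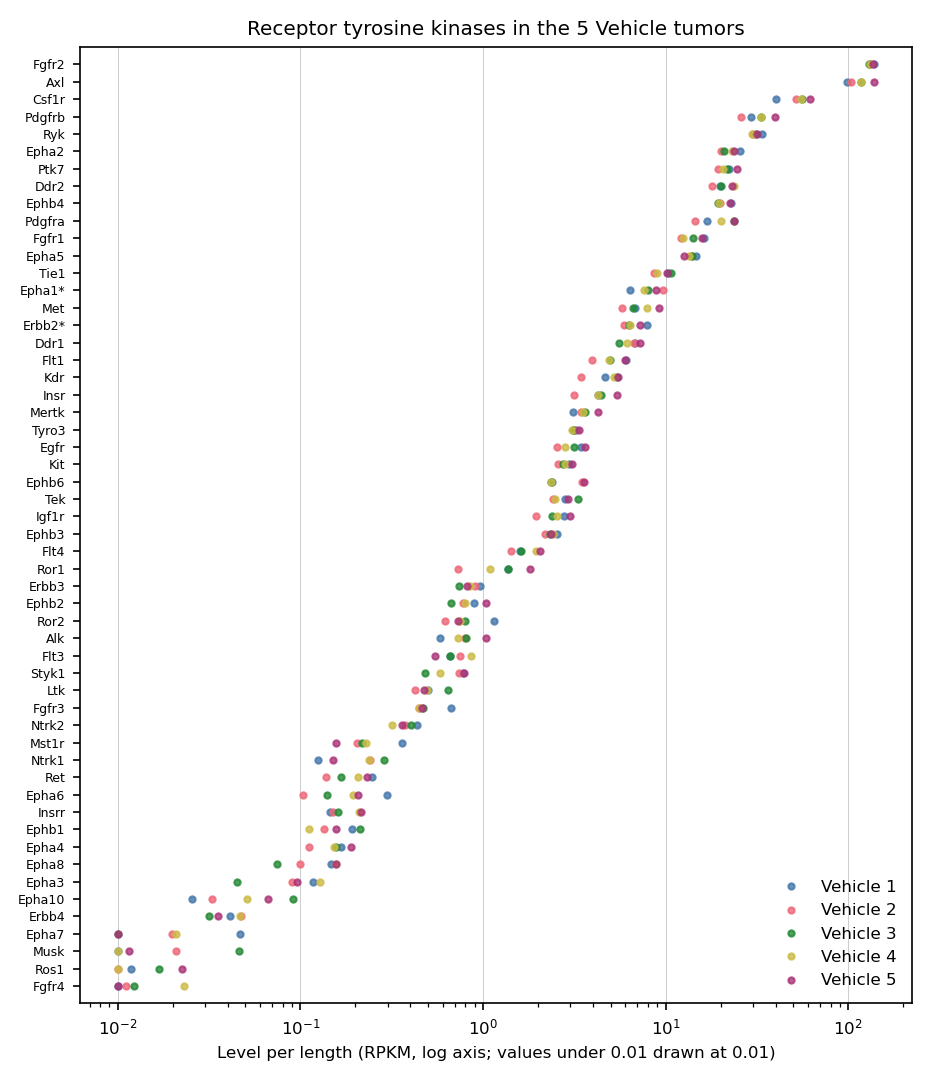
RPKM of the receptor tyrosine kinase genes on a log axis, with 1 coloured point per Vehicle tumor and genes in order of their mean. Fgfr2 (130 to 138) and Axl (98.2 to 139) stand at the top, and Epha7, Musk, Ros1 and Fgfr4 at the bottom. Values under 0.01 are drawn at 0.01, and an asterisk marks a gene that may share its count with an overlapping gene.

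Of 72 RTK ligands, 42 were expressed, 19 lay between and 11 were silent. Pdgfa, a ligand of the PDGF receptors, was the highest at 62.8 RPKM (242, 197, 165, 202 and 174 CPM). Csf1, the growth factor of macrophages, followed at 52.1 RPKM (253, 267, 253, 314 and 288 CPM), beside its receptor Csf1r at 52.8. Vegfc (31.7 RPKM), a factor of lymphatic vessels, Gas6 (26.8), the ligand of Axl, Vegfb (26.6), Pdgfb (24.4), Vegfa (24.3) and Pdgfc (22.3) came next. All 4 PDGF ligands and all 5 VEGF and PLGF ligands were expressed, and the PDGF ligands summed to 415 ± 27 CPM.

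The ligands of the most abundant RTK were by contrast scarce. Of 22 FGF genes, 5 were expressed in all tumors, 8 lay between and 9 were silent, and Fgf3, Fgf4, Fgf6, Fgf8 and Fgf15 had no count. None was above 1.64 RPKM, the level of Fgf2, which may share its count with Nudt6. Fgf7 and Fgf10, ligands of the epithelial form of FGFR2, were at 1.15 and 0.470 RPKM. The sum over the 22 was 35.6 ± 5.87 CPM, highest in Vehicle 1 at 45.2. Ins1 and Ins2 had no count, Igf2 was at 9.09 RPKM and Igf1 at 2.10. Among ERBB ligands, Areg (9.82 RPKM), Hbegf (7.36) and Tgfa (2.87) were present and Egf was at 0.0408. Hgf, the ligand of Met, was at 0.428 RPKM.

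Most genes of the relays below the RTKs were expressed, at 94 of 102, with 6 between and 2 silent. Ptpn11, which encodes SHP2 (chr5:121130533-121191397), was at 168, 140, 158, 167 and 173 CPM, or 21.5 RPKM, with Vehicle 2 the lowest. Ptpn6, which encodes the related SHP1 of blood cells, was higher per length at 43.8 RPKM. Grb2, the adaptor that brings SOS to receptors, was at 47.7 and Shc1 at 33.0 RPKM (179, 186, 188, 193 and 184 CPM). The scaffolds on which SHP2 docks were lower, with Gab2 at 7.38, Frs2 at 4.82 and Gab1 at 3.90 RPKM. Irs1 was at 6.89 RPKM, Irs4 had no count and Shc3 was silent. Shc4, at 134 CPM, overlaps Eid1, at 129 CPM.

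All RAS genes were expressed, among them, ordered by mean, Rras (40.0 RPKM), Nras (29.2), Rras2 (14.8), Hras (11.7) and Mras (4.12). Of the kinases below them, Mapk3 (ERK1) was at 59.8 RPKM, Map2k1 (MEK1) at 36.1, Map2k2 (MEK2) at 19.3 and Braf at 1.99. The sum of the 9 RAF, MEK and ERK genes was the steadiest of all 74 lists at 780.5, 793, 782, 789.6 and 796 CPM. Genes induced by ERK that feed back on it were high, with 16 of 17 expressed. Dusp6, the phosphatase of ERK, was at 276, 290, 283, 279 and 259 CPM, or 88.6 RPKM, followed by Spry1 at 49.4, Spred1 at 30.7, Etv4 at 26.2 and Dusp4 at 25.5 RPKM.

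All 9 class I PI3K subunits were expressed. The regulatory subunit Pik3r2 was the highest at 13.2 RPKM, followed by the leukocyte catalytic subunit Pik3cd at 10.1, the catalytic subunit Pik3ca at 7.52 (69.6, 59.3, 68.3, 68.9 and 75.4 CPM) and the regulatory subunit Pik3r1 at 6.70 (64.5, 57.3, 67.8, 70.7 and 77.2 CPM). Inppl1, the lipid phosphatase SHIP2, was at 20.2 RPKM. Akt1 was at 93.9 RPKM (367, 406, 368, 384 and 400 CPM) and Akt2 at 13.01. Mapkap1, an mTORC2 subunit, stood at 82.2 RPKM and spans pseudogenes, whose part in that level was not tested. Mtor itself was at 6.32, Rptor at 3.67 and Rictor at 2.85 RPKM.

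The median biological coefficient of variation (BCV, the spread left after counting error) was 0.0997 over all genes above 10 CPM. It was 0.0809 over the RAF, MEK and ERK genes, and between 0.0998 and 0.119 over the other 7 lists of pathway genes, tumor suppressors and oncogenes included.

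**Figure D3:**
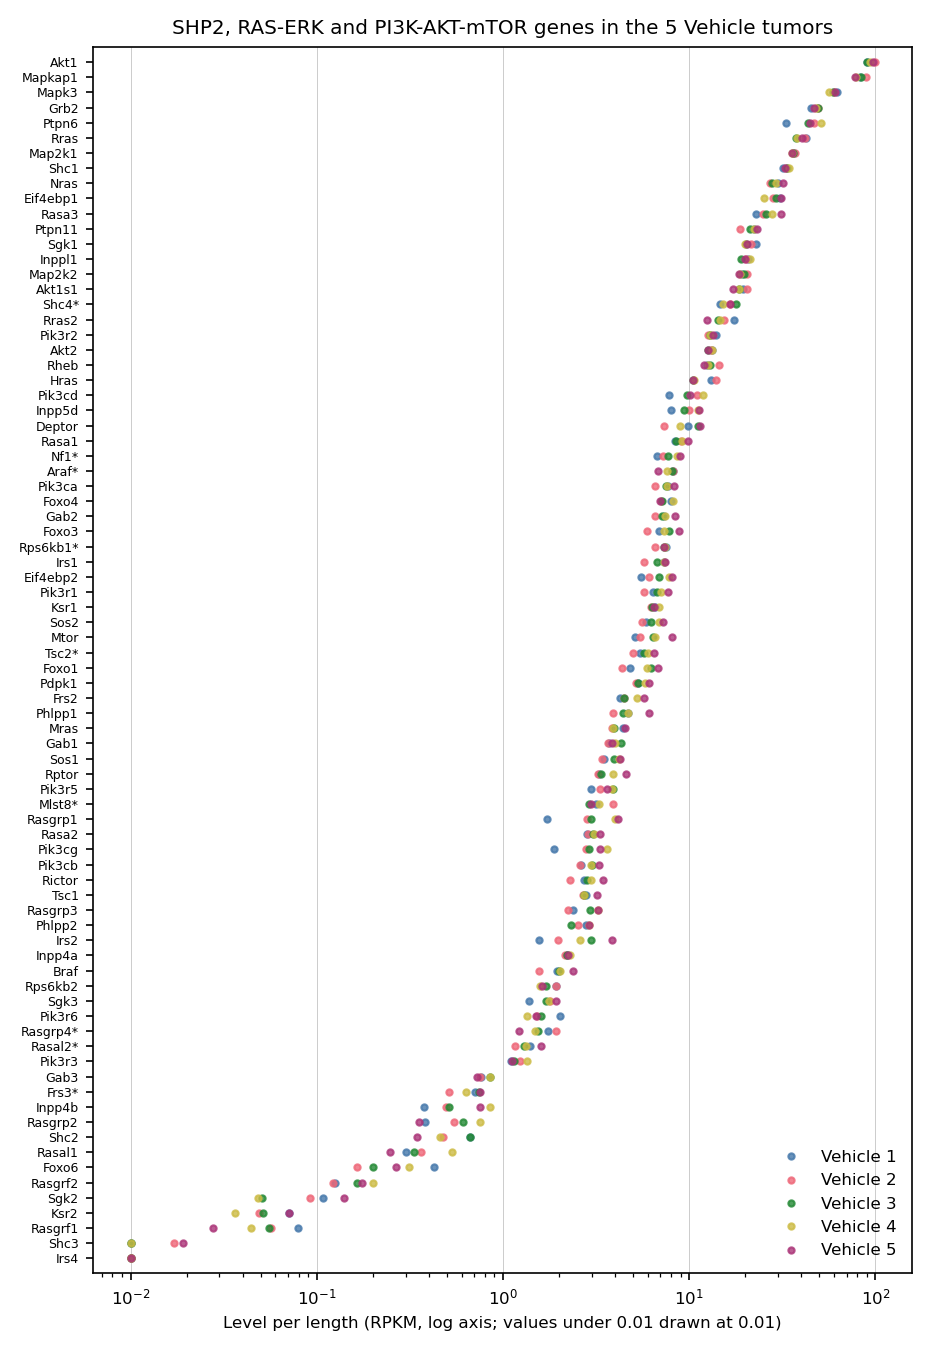
RPKM of genes of the SHP2, RAS to ERK and PI3K to mTOR relays on a log axis, with 1 coloured point per Vehicle tumor and genes in order of their mean. Akt1 (93.9) is at the top, Ptpn11 (21.5) and Pik3ca (7.52) lie below it, and Shc3 and Irs4 are at the bottom, where values under 0.01 are drawn at 0.01. An asterisk marks a gene that may share its count with an overlapping gene.

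Among tumor suppressors and oncogenes, 17 of 19 were expressed. Mcl1, which blocks apoptosis, was at 91.1 RPKM, and Myc at 57.9 RPKM (171, 167, 145, 153 and 150 CPM). Trp53 was at 57.7, 60.2, 57.9, 62.7 and 58.1 CPM, or 14.7 RPKM. RNA level says nothing of the integrity of the transcript. Cdkn2a, at 9 to 27 counts and 0.674 RPKM, was under 1 CPM on average, and Cdkn2b, its neighbour on the chromosome, was at 1.10 RPKM.

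Of the proliferation genes, 18 of 18 were expressed, at a sum of 2890 ± 221 CPM. Ccnd1, the D-type cyclin of the G1 phase, was at 876, 853, 778, 1050 and 960 CPM, or 192 RPKM, against 6.004 RPKM for Ccnd2. Its partner Cdk4 stood at 101 RPKM, and Cdk6 at 1.85. Pcna (104 RPKM), Top2a (84.2) and Rrm2 (53.1) led the S-phase and mitotic genes. Mki67 was at 222, 150, 191, 241 and 256 CPM, and Vehicle 2 was the lowest.

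Collagens were abundant among matrix genes, beside Fn1 at 236 RPKM. Of 44 collagen genes, 32 were expressed and none was silent. Col1a1 was the highest of them at 217 RPKM (2023, 793, 1630, 1097 and 1564 CPM), then Col3a1 at 182 RPKM (2227, 1440, 2322, 1353 and 1606 CPM). Col4a1, at 143 RPKM, overlaps Col4a2, with which it may share a part of its count, and was the third. The ranges of the 3 overlapped. The collagen sum was 10750, 6741, 10167, 7639 and 8999 CPM, and the sum of 18 fibroblast markers ran in the same order, 7415, 4363, 6903, 4679 and 5805 CPM. The collagen and fibroblast lists share members, so they are not separate readings.

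Matrix proteases were present, with 18 of 27 genes of the metalloproteinase and TIMP families expressed. Timp1 (111 RPKM), Timp2 (108) and the membrane protease Mmp14 (69.3) led, and Mmp9, the gelatinase of neutrophils and macrophages, was at 58.7. Mmp7, Mmp20 and Mmp21 were silent. Among integrins, 25 of 26 were expressed, with Itgb1 at 193 RPKM, Itga3 at 92.5 and the leukocyte chain Itgb2 at 69.3. Laminin genes summed to 2009, 1446, 2006, 1990 and 2696 CPM, led by Lamc1 at 70.2, Lamb1 at 66.4 and Lama5 at 47.4 RPKM.

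Vessels gave a nearly even signal. All 20 endothelial genes were expressed, at a sum of 1326 ± 79.8 CPM. Plvap (70.6 RPKM, which may share its count with Gtpbp3), Eng (49.4) and Apln (45.8) led, with Pecam1 at 27.9. Lymphatic markers summed to 50.7 ± 5.32 CPM, with Prox1 at 0.0985 RPKM. The pericyte and smooth muscle list summed to 516 ± 45.9 CPM, and Myocd, the master factor of smooth muscle, was silent.

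Cells of the fat pad and of its surroundings were seen unevenly. Adipocyte genes summed to 935 CPM in Vehicle 1 and to 507, 474, 647 and 460 CPM in the others, with Cfd the highest at 125 RPKM and Adipoq at 37.6, 19.5, 16.7, 25.8 and 16.1 CPM. Skeletal muscle genes summed to 143 CPM in Vehicle 3 and 22.0 to 38.3 CPM elsewhere. Acta1, the actin of skeletal muscle, was at 0.739, 0.352, 26.6, 0.205 and 2.57 CPM. Nerve genes summed to 114 ± 5.05 CPM, mostly from Pmp22 (67.7 CPM) and Mbp (33.8 CPM), which other cells also express. Hemoglobin was present, with Hba-a1 at 304, 269, 374, 188 and 178 CPM.

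Myeloid genes were abundant. The 24 macrophage and monocyte markers summed to 7367, 9184, 9316, 7803 and 8329 CPM, and 22 were expressed. Lyz2, lysozyme, was at 1234 RPKM (1219, 1851, 2034, 1379 and 1638 CPM), Spp1, osteopontin, at 1100 RPKM, Apoe at 728, and the complement subunits C1qa and C1qb at 530 and 420. Cancer cells can make Spp1, so it does not mark macrophages alone. Adgre1, the F4/80 antigen, was at 28.5 RPKM, Mrc1 at 27.9 and Arg1 at 74.9. Chil3 and Marco, markers of subsets, were at 0.537 and 0.795 RPKM.

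Neutrophil genes summed to 758 ± 92.2 CPM. The lists differ in members and transcript lengths, so their sums do not rank the cell types. S100a9 was at 142 RPKM, Lcn2 at 122 and S100a8 at 60.1 RPKM (34.6, 45.9, 70.1, 31.6 and 26.4 CPM). Lcn2 and Mmp9, which are not particular to neutrophils, made up 321 and 208 CPM of the sum. The defining surface marker Ly6g had 1 to 13 counts, and the granule genes of immature neutrophils, Elane, Mpo and Camp, were each under 1 CPM. Csf3, the growth factor of neutrophils, was at 20.04, 12.6, 14.8, 11.9 and 14.7 CPM, or 10.5 RPKM, against 52.1 RPKM for Csf1 and 0.377 RPKM for Csf2.

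As list sums, lymphocyte genes were more variable between tumors than macrophage and neutrophil genes. The SD was 16.2% of the mean for T cell, 16.5% for NK and cytotoxic and 39.3% for B and plasma cell sums. It was 10.1% for macrophage and monocyte and 12.2% for neutrophil sums. Gene by gene this did not hold for neutrophils, whose median BCV of 0.254 lay above those of T cell (0.234) and NK (0.207) genes. It lay below that of B and plasma cell genes (0.383). All 18 T cell genes were expressed, at a sum of 279 ± 45.3 CPM. The highest per length was Ctla4, the inhibitory receptor of regulatory T cells, at 25.4 RPKM (61.4, 67.2, 60.9, 50.9 and 55.4 CPM), while the T cell receptor component Cd3e was at 2.66 RPKM (6.23, 9.90, 10.5, 17.6 and 9.94 CPM). Ctla4 was thus lowest in Vehicle 4, where Cd3e was highest. Cd8a, of cytotoxic T cells, was at 7.85, 16.4, 17.5, 22.9 and 16.4 CPM, with Vehicle 1 below 0.5 times every other. NK and cytotoxic genes summed to 98.8 ± 16.3 CPM and were lowest in Vehicle 1 at 74.0 CPM. B and plasma cell genes summed to 42.3, 117, 111, 126 and 65.6 CPM. Mast cell genes were present (Mcpt4 at 5.14 and Tpsb2 at 5.22 RPKM) and the eosinophil gene Epx was at 0.0149 RPKM.

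**Figure D4:**
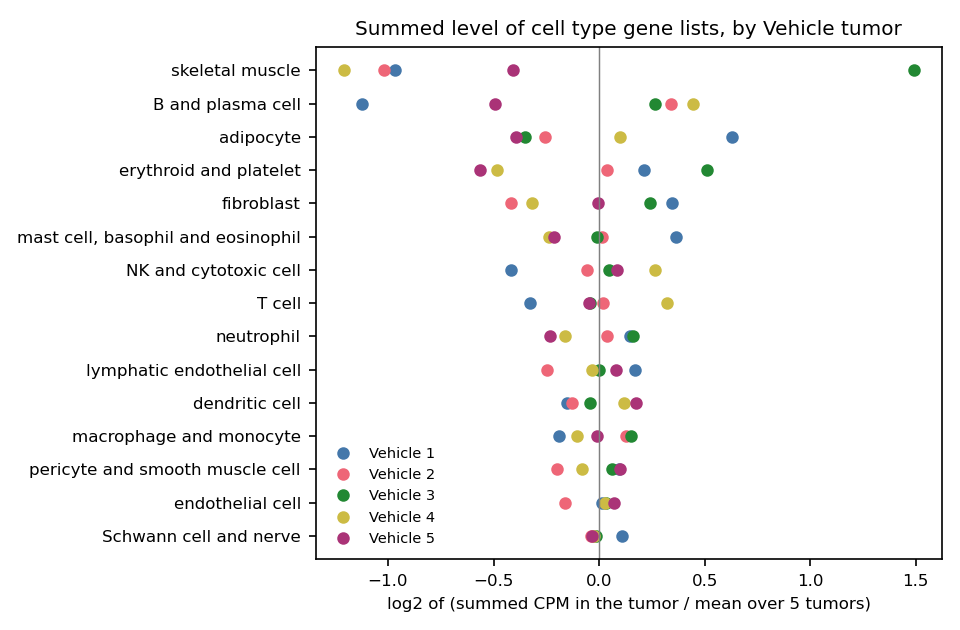
Summed CPM of each cell type's marker genes in each Vehicle tumor, drawn as the log2 of its ratio to the mean of the 5, with 1 coloured point per tumor and lists in order of their spread. Skeletal muscle is widest, with Vehicle 3 (143 CPM) to the right of the other 4 (22.0 to 38.3 CPM), B and plasma cell genes run from 42.3 to 126 CPM, and endothelial and nerve genes are the narrowest.

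Antigen presentation was among the most abundant functions. All 14 MHC class I genes were expressed, with B2m at 2536, H2-K1 at 604 and H2-Q4 at 439 RPKM, at a sum of 9150 ± 475 CPM. All 9 MHC class II genes were expressed too, with Cd74 at 1314, H2-Eb1 at 440 and H2-Ab1 at 320 RPKM. Their sum was far less even, at 2970, 5123, 5238, 5974 and 6653 CPM. Ciita, the coactivator that turns on class II genes, ran in the same order of tumors, at 26.6, 42.5, 46.7, 72.1 and 76.8 CPM. Its count may be shared with Dexi. Dendritic cell genes summed to 798, 811, 861, 964 and 1004 CPM, again lowest in Vehicle 1 and highest in Vehicle 5, and Fscn1, which tumor cells also express, made up 490 CPM of the mean.

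Of 22 checkpoint genes 21 were expressed. Lgals9 (65.6 RPKM), Cd47 (45.6), the signal that inhibits phagocytosis, and its receptor Sirpa (40.1) were the highest. Cd274, which encodes PD-L1, was at 13.2 RPKM and may share its count with Plgrkt. Pdcd1, which encodes PD-1, was at 3.31 RPKM.

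Chemokines were present at very different levels. Per length, Ccl8 was at 208 RPKM, Ccl6 at 117, Cxcl14 at 108, Cxcl9, an interferon-induced ligand of CXCR3, at 64.9, and Cxcl16 at 62.9. The neutrophil attractants Cxcl1, Cxcl2 and Cxcl5 were at 7.83, 6.09 and 9.63 RPKM. Of 22 chemokine receptors, 15 were expressed. Cx3cr1 was the highest per length at 51.7 RPKM, then Ccr9, a receptor of gut-homing lymphocytes, at 33.6 and Ccr1 at 31.2. Ccr9 was even between tumors at 363, 337, 342, 341 and 340 CPM, while T cell genes ranged from 223 to 349 CPM. Its ligand Ccl25 was at 0.637 RPKM.

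Cytokines were mostly scarce. Of 39 interleukin and inflammatory cytokine genes, 23 were expressed and 10 silent, and Il9, Il17a, Il20 and Il22 had no count. Tslp, an epithelial cytokine, was the highest at 62.3 RPKM, ahead of Il1b at 48.4 and Il33 at 21.8. Il6 (0.819 RPKM), Il10 (0.486), Ifng (1.28) and Tnf (1.95) were low. The sum over the list was close to even, at 434, 442, 438, 436 and 394 CPM.

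Developmental signals were selective. Of 19 Wnt ligands, 10 were expressed and 5 silent, with Wnt7b at 31.2 RPKM, Wnt6 at 30.8 and Wnt5b at 23.7 (sharing its count with Fbxl14), and no count for Wnt8a and Wnt8b. Of the Frizzled and LRP genes 10 of 12 were expressed, led by Fzd7 at 16.9 RPKM. Notch2 (11.4 RPKM), Dll4 (9.26) and Jag1 (6.23) led the Notch family, and Dll3 was silent. In the TGF-beta and BMP family, 20 of 25 were expressed, with Tgfbr1 at 43.3, Inhbb at 41.0 and Tgfb1 at 32.2 RPKM.

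Of 42 nuclear receptor genes, 29 were expressed, 10 lay between and 3 were silent. Retinoid and sterol receptors stood highest: Rara at 22.2 RPKM, Nr1h2 at 21.2 and Rarg at 20.6. The glucocorticoid receptor Nr3c1 was at 9.18 RPKM. Nr0b1 had no count. Esr2 (5.21 RPKM) spans a pseudogene and Rarb (5.14 RPKM) several, and their part in these levels was not tested.

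Energy metabolism was read from isoform families, in which 1 member usually carried the level. Of 26 glycolytic genes 20 were expressed and 5 silent. Aldoa was at 439 RPKM, Pkm at 426 while Pklr was at 0.0105, Pgk1 at 354 while Pgk2 had no count, and Ldha at 323 while Ldhb was at 6.10. Slc2a1, the GLUT1 transporter, was at 52.9 RPKM, the highest of 11 glucose transporters. All 16 hypoxia response genes were expressed, led by Egln3 (92.9 RPKM), Ndrg1 (76.1) and Ddit4 (59.3), and their sum was highest in Vehicle 1 at 2479 CPM and between 1870 and 2162 CPM in the others.

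Some genes of the Y-linked, liver, testis and brain lists were detected. Ddx3y, on the Y chromosome, was at 1.48, 1.25, 1.83, 1.03 and 1.31 CPM in these female hosts, in which Sry, Eif2s3y, Kdm5d and Usp9y were silent. Cyp2e1, a liver and fat gene, averaged 8.25 CPM, and Sycp3, a meiotic gene that may share its count with Chpt1, 7.07 CPM. Of 12 brain genes 2 were silent, 9 lay between, and Syn1, whose count matches that of Timp1, passed.

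The 5 tumors resembled each other closely. A BCV fitted on the Vehicle tumors alone was 0.126 over 14128 genes. Of 10403 genes above 10 CPM, 9017 (86.7%) had a highest tumor under 1.5 times the lowest, and 39 (0.375%) had one above 3 times. On 1 set of 15282 genes the BCV was 0.130 in Vehicle (n = 5), 0.175 in SHP2i (n = 4), 0.242 in PI3Ki (n = 4) and 0.283 in Combo (n = 5), values that were not tested against each other. The genes with the lowest BCV were Slc35a4, Tspan14, Brwd1, Ppp6c, Csnk2a2, Slc30a9, Ccz1, Hbs1l, Mpp1, which may share its count with Dkc1, and R3hdm4. Slc35a4 was at 66.4, 65.4, 65.8, 66.2 and 67.3 CPM. The BCVs of these genes lay between 0.0740 and 0.0744. Such estimates are pulled toward those of genes of similar level, so no order among these genes can be read.

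The least steady genes fell into a few kinds. Glycam1 led with a BCV of 0.754. Thrsp, a lipogenic gene of fat and mammary tissue, followed at 22.8, 6.02, 1.35, 18.7 and 4.80 CPM, then Fcgbp, a mucin-like protein, at 34.4, 27.4, 9.94, 45.5 and 6.32 CPM, with Vehicle 3 and Vehicle 5 the lowest for both. Jchain, of antibody-secreting cells, was at 14.4, 29.1, 39.2, 15.3 and 7.76 CPM. Other listed genes above 10 CPM with a highest tumor over 3 times the lowest included Krt19, Krt7, Cd79a, Cd79b, Ltf, Cxcl2, Lamb3 and Prlr, which are epithelial, B cell or inflammatory genes.

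The other kind was set by Vehicle 5. Above 10 CPM, 17 genes were more than 2 times as high there as in any other tumor, a count that was 0 in each of the other 4. They include Il31ra at 46.9, 38.9, 28.3, 30.6 and 131 CPM, Lars2, a mitochondrial leucyl-tRNA synthetase, at 225, 215, 155, 186 and 631 CPM, and Tmtc2 at 29.3, 25.6, 22.2, 23.2 and 78.2 CPM. Jarid2 (306 CPM against 82.0 to 118), Gphn (329 against 91.3 to 130), Filip1l, Cmss1, which overlaps Filip1l, Zc3h7a, Peak1, Arhgap21, Sspn, Gnb1l, Nptx1, Apol7d and the small RNA genes Rn7s1, Rn7s2 and Mir6236 made up the rest. These were named after their values were seen. Rn7s1 and Rn7s2, copies of the 7SL RNA, were at 24.5 and 24.6 CPM there and 9.42 or less elsewhere, and the part of such non-coding RNA in the other genes' counts was not tested. In the opposite direction, 5 genes in Vehicle 1 were under 0.5 times every other tumor. These were the lymphocyte genes Cd79a and Cd8a, the class II gene H2-Eb2, Glycam1 and 4930526L06Rik, which overlaps the B cell gene Ms4a1. The count was 2 in Vehicle 5, with Krt19 among them, and 1 in Vehicle 3, which was Thrsp. It was 0 in Vehicle 2 and Vehicle 4.

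**Figure D5:**
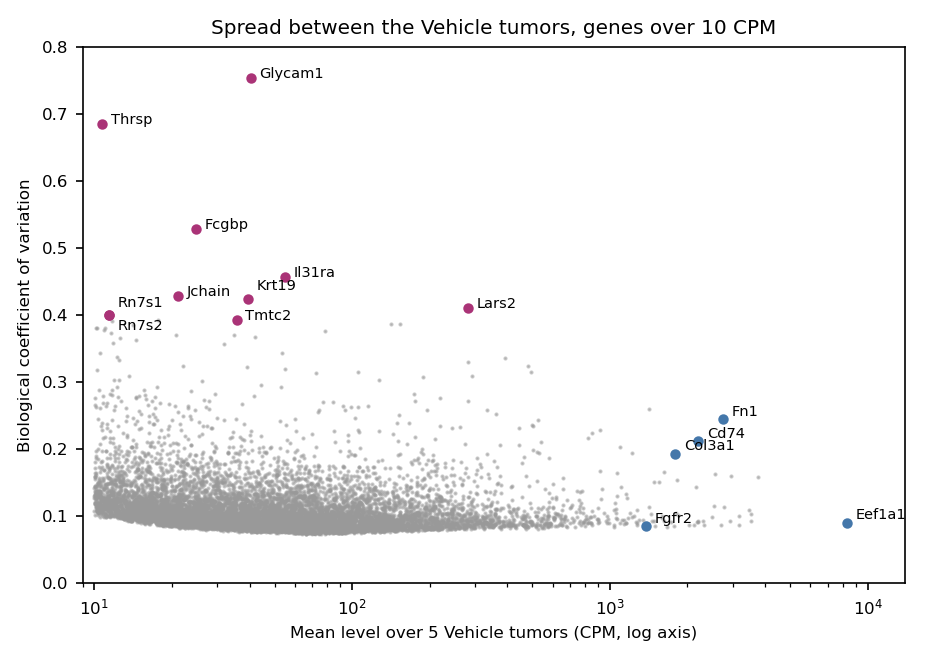
Biological coefficient of variation against mean CPM (log axis) for the genes above 10 CPM in the Vehicle tumors, each grey point 1 gene, with the 10 most variable genes in red and 5 genes of the text in blue. Most genes lie near 0.1, Glycam1 (0.754), Thrsp (0.685), Fcgbp (0.528) and Il31ra (0.457) stand highest, and Fn1 is the most variable of the blue genes.

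To see where the baseline stood apart from the rest of the series, Vehicle was set against the mean of the PI3Ki, SHP2i and Combo groups with edgeR's quasi-likelihood test over 15282 genes. With the limits of 0.05 on the adjusted p and of 1 on the size of the log2 fold change, 433 genes (2.83%) were higher in Vehicle and 134 (0.877%) were lower, the latter 78 when Vehicle 2 was left out. The median log2 fold change over all genes was -0.01. All 5 Vehicle tumors lay above all 13 treated tumors for 64 genes (0.419% of those tested) and below them for 55 (0.36%). Of the called genes, 28 of the higher and 13 of the lower had such non-overlapping groups. Of the 878 tested genes of the lists above, 65 were higher and 15 lower. The lists were drawn up with results of these data known, so these counts are a description.

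Of the 28 higher genes without overlap, the 10 with the largest differences at a mean log2 CPM above 1 are given. Slamf9, a receptor of myeloid cells, was at 15.3, 22.8, 20.5, 32.7 and 27.2 CPM in Vehicle and between 0.0886 and 10.5 CPM in the treated tumors. Its log2 fold change was 3.85 ± 0.21 (SE derived from the F statistic of the test, edgeR adjusted p = 8.4e-09). Cadm1, an adhesion molecule of the dendritic cells that cross-present antigen, was at 35.4, 42.4, 51.0, 71.7 and 77.1 CPM against 3.59 to 31.3 CPM, a difference of 2.62 ± 0.19 (edgeR adjusted p = 1.2e-07). Tlr12 (2.87), Cd244a (2.45) and Gpr65 (2.28), also receptors of leukocytes, and Kcnj10 (3.76), Ppfia4 (3.15), Tmem273 (2.30) and Gm6377 (2.14) were higher than in the treated tumors on the same log2 scale. Dusp2, a phosphatase of ERK in immune cells, was at 10.6, 12.6, 12.3, 13.9 and 13.3 CPM against 0.664 to 6.55 CPM, a difference of 1.85 ± 0.27 (edgeR adjusted p = 0.00018).

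Of the 13 lower genes without overlap, 9 had a mean log2 CPM above 1. C3, the central complement component, was at 317, 231, 281, 325 and 250 CPM against 419 to 1932 CPM in the treated tumors, a log2 fold change of -1.60 ± 0.32 (edgeR adjusted p = 0.0021). The others were Car4 (-2.66), a carbonic anhydrase, the coagulation factor F7 (-2.55), Zbtb16 (-2.08) and the cytokine-signalling inhibitor Cish (-1.55). They also included the glucocorticoid-activating Hsd11b1 (-1.41), Smtnl2 (-1.22), Ampd3 (-1.08, which may share its count with Rnf141) and the Wnt antagonist Sfrp1 (-1.02). Sfrp1 was no longer past the fold threshold when Vehicle 2, PI3Ki 2 or Combo 3 was left out, or with no scaling beyond the total count.

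By list, the share of tested genes that were higher in Vehicle was 2.83% over all genes and largest in the MHC class II (77.8%), macrophage and monocyte (45.8%) and dendritic cell (42.9%) lists. Of 9 MHC class II genes 7 were higher in Vehicle, with a median log2 fold change of 1.26 over the list, for instance H2-Eb1 (1.48) and Cd74 (1.26). Of 24 macrophage and monocyte genes 11 were higher, among them Timd4 (2.83), Fcgr1 (2.48) and Msr1 (2.27), and 2 were lower, Chil3 (-4.43) and Cd163 (-1.97). Of 14 dendritic cell genes 6 were higher, of 22 chemokine receptors 5, of 28 tested interleukin and cytokine genes 6, and of 11 laminin genes 3, which was 1 without Vehicle 1. The treated tumors ranged widely for these genes: Fcgr1 ran from 1.37 to 111 CPM there and from 68.8 to 104 CPM in Vehicle, and the groups overlapped. On the other side, 6 of 18 tested skeletal muscle genes were lower in Vehicle, beside 0.877% of all genes. The count was 2 without Vehicle 1, Vehicle 2, Vehicle 4 or Vehicle 5, 3 without SHP2i 2 and 10 without Vehicle 3, and Ryr1 (-1.25) and Neb kept the call each time. Among the 6 was Neb (-1.69), which reached 44.1 CPM in a treated tumor and 3.88 CPM at most in Vehicle. Muscle markers thus moved with the comparison, and their part in the lower genes was not tested.

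Of 50 tested RTK genes, Ephb1 (1.64) and Flt3 (1.27), both under 5 CPM on average, were higher in Vehicle, which is 4.0% beside 2.83% of all genes, and none was lower. Flt3 did not pass without Vehicle 1, Vehicle 2, Vehicle 3 or Vehicle 4. Axl (log2 fold change -0.03, edgeR adjusted p = 0.84), Pdgfrb (-0.02, 0.94) and Ptpn11 (-0.11, 0.26) did not pass. Fgfr2 (-0.19, 0.048) and Pdgfra (-0.94, 0.0016) passed on p but not on fold. Of 118 tested genes of the pathway lists, 5 (4.24%) passed, all higher in Vehicle: Dusp2, the leukocyte genes Inpp5d (1.21), Pik3cg (1.18) and Ptpn6 (1.07), and Sgk3 (1.04). Sgk3 did not pass without Vehicle 5, Combo 1 or Combo 5. A p that misses the threshold does not show that a level was the same.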

How the data were processed

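RNA-seq of 18 whole 4T1 tumors was analysed, with 5 Vehicle tumors described and 13 treated tumors used for comparison. The deposited values are raw counts per gene, made by the authors from poly(A)-selected, strand-marking libraries: adapters were cut with cutadapt, reads aligned with STAR in 2 passes to GRCm38, and genes counted with qCount of QuasR. Versions, annotation and the strand setting are not given in the sources used here, and the labels also name a human build. Groups came from the sample titles. The tables hold no rows without a gene, and 0 columns were left unused.

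CPM was computed with TMM factors over the 18 tumors in edgeR 4.0.16 (R 4.3.3), and RPKM with exon lengths of GENCODE M21 for 20727 genes, which hold 98.7% of the Vehicle counts. Total counts ran from 21161111 to 24785931 in Vehicle, where 3 counts are 0.121 to 0.142 CPM. The BCV was fitted on the Vehicle tumors alone. Vehicle was compared with the mean of the treated groups by edgeR's quasi-likelihood F test with 1 mean per group, filterByExpr and Benjamini-Hochberg adjustment over 15282 genes, the limits of the study's methods. The SE of a log2 fold change was not fitted but taken as its size over the square root of the F statistic. Scripts were tested on simulated counts. Alternatives were other scalings, thresholds and filters, DESeq2 1.42.0, a replicate block and leaving out each tumor. Tumors are numbered in the labels without an animal, so they were taken as 1 per host, and p-values measure only the spread between these samples.

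Members and lists were chosen with earlier results of these data known. Genes were named by rule: the 20 highest by CPM and by RPKM, the 3 highest per length and the members without a count in each list, any RTK, ligand, pathway, luminal keratin, nuclear receptor or colony stimulating factor gene, the 10 most and 10 least variable above 10 CPM, listed genes over 3-fold between tumors, up to 10 genes a direction past the test without overlap and with a mean log2 CPM above 1, and genes the study names. Other genes in the text, given as reference points, were chosen after their values were seen. Genes absent from the tables (such as Gapdh, Hbb-bs, H2-D1 and Ntrk3) were not analysed here, and some listed genes are not reported here.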

Additional observations from a re-analysis of the deposited data

Results flagged for a closer look

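Of 140 quantities checked over the 5 Vehicle tumors (74 list sums and 66 genes), 11 had 1 tumor set apart by Dixon's criterion for 5 samples (0.71), where chance alone gives about 1 in 20. That share does not hold for genes taken up because they varied most, such as Il31ra, Lars2 and Tmtc2. The list sums share some members. Vehicle 5 was the tumor set apart in 6 of the 11 and Vehicle 1 or Vehicle 3 in 4.

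Vehicle 5 was high for the summed mesenchymal and EMT genes, at 9781 CPM beside a median of 7064 CPM, and for Fn1, a member of that list, at 4513 CPM beside a median of 2436 CPM. It was also high for Il31ra (131 CPM, median 38.9), Lars2 (631 CPM, median 215) and Tmtc2 (78.2 CPM, median 25.6), and low for the summed interleukins and inflammatory cytokines (394 CPM, median 436).

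Vehicle 3 was high for the summed skeletal muscle genes, at 143 CPM beside a median of 26.0 CPM, and for Acta1, at 26.6 CPM beside a median of 0.739 CPM. Vehicle 1 was high for the Schwann cell and nerve sum (123 CPM, median 112) and for Ccr9 (363 CPM, median 341), steps that are small beside the level. Vehicle 2 was low for the endothelial sum, at 1187 CPM beside a median of 1351 CPM, and it also had the lowest share of mitochondrial counts, at 1.16%. The cause of these departures was not tested.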

How the results depend on the processing

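The count of expressed genes was 13971 at 0.5 CPM, 12527 at 2 CPM and 13344 to 13383 without 1 tumor. Silent genes numbered 3788 at 0 counts, 7582 at up to 10 counts and 6289 to 6337 without 1 tumor. The top 20 genes held 4.72% of counts when ranked per length, by construction a shorter set, and 6.18% to 6.35% without 1 tumor. The common BCV was 0.213 in a fit over all 18 tumors, which pools the more variable treated groups, 0.131 without a filter, and 0.116 (without Vehicle 5) to 0.137 (without Vehicle 3). Against the treated groups, dropping the fold minimum gave 1581 higher and 1593 lower genes. Leaving out 1 tumor gave 389 to 510 higher and 78 (without Vehicle 2) to 161 lower genes, and DESeq2 gave 446 and 175, of which 432 and 131 were also called by edgeR. With the replicate block the counts were 458 and 111, of which 416 and 104 were shared with the fit without it. The replicate numbers carry no stated pairing. Of 24 same-number pairs, 8 correlated above 0.1 (-0.42 to 0.326), beside 28 of 97 other pairs. The pairs have tumors in common and are not independent, so these counts do not settle whether same-numbered tumors were paired. Sfrp1 fell under the fold threshold with no scaling beyond the total count, at -0.99. Of 222 list sums under another scaling, 4 moved by over 1 SD (RAF, MEK and ERK kinases, and tumor suppressors and oncogenes), as CPM shifted by up to 1.82% in all, and none of 370 did so without 1 tumor. No result reversed. Depth limits what can be said of genes at or under 3 counts.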
